A study of Mus musculus with 6 samples.

Results

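The clustered protocadherin genes form 3 neighbouring groups, alpha, beta and gamma, on mouse chromosome 18. The members described here were chosen by name from the array annotation, which had to give a row exactly 1 gene symbol of these clusters. That choice used no measured value. It gave 23 genes out of 22180 with a row of their own, namely all 22 beta genes of the RefSeq mouse gene table, 1 of 22 gamma genes (Pcdhga10) and 0 of 14 alpha genes. Every member had a single row, so the rule that keeps the row with the highest mean had nothing to decide. A further 9 alpha genes and 9 gamma genes were named together in 1 row for each cluster, which cannot be assigned to any gene. The other 5 alpha and 12 gamma genes were not analysed here.

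Protocadherins are cadherin-type adhesion molecules of neurons. Each alpha or gamma transcript joins a variable exon, which has its own promoter and encodes the extracellular part, to constant exons shared by the whole cluster. A beta gene is complete in a single exon and has no shared part. Individual neurons use different sets of these genes, chosen promoter by promoter with the help of the chromatin organizers CTCF and cohesin. The proteins of neighbouring membranes bind like to like, and in mice this recognition is known for the self-avoidance of branches of the same neuron and, for the gamma genes, for neuronal survival.

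Expression was measured on 6 Affymetrix whole-transcript arrays of RNA from male C57BL/6J mice, an inbred strain, with 3 arrays for ethanol and 3 for saline. Pups of the ethanol group were dosed subcutaneously at 2.5 g/kg, with the alcohol made up in 0.15 M NaCl, and their littermates in the control group received saline. Postnatal days 4 and 7 were the injection days, with 2 injections each, given 2 hours apart. An array stands for a pool of 3 animals, 18 mice in all. The tissue is labelled as whole hippocampus. The labels give the age as 21 days in the characteristics and as day 70 in the treatment protocol. Pooling averages over animals, so the errors below are those between pools, and in tissue RNA fewer cells of a type and less RNA per cell cannot be told apart.

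Values are on a log2 scale, on which a difference of 1 is a doubling. Saline array 1 had Pearson correlations over all rows of 0.987 with both other saline arrays, against 0.990 to 0.992 with the ethanol arrays. The other saline arrays correlated at 0.988 with each other, below every ethanol pair, at 0.991 to 0.992. Their correlations with the ethanol arrays went down to 0.987. By this measure saline array 1 was closer to the ethanol arrays than the other saline arrays were, and it was not the only saline array apart. On the first principal component, the main axis of variation over all rows, saline array 1 stood at -19.9. Ethanol arrays 1 to 3 stood at -15.7, -19.1 and -1.6 on it, and saline arrays 2 and 3 at 32.6 and 23.7. Saline array 1 held the highest median of the 10 interneuron markers, at 9.49. It also held the highest median of the hippocampal neuron markers, at 7.34, and of the cerebellar neuron markers, at 9.99. Nrgn, a calmodulin-binding protein of forebrain neurons, was at 9.11 on that array, against 7.17 to 7.48 on every other array. Camk2a was at 10.16 there, against 9.58 to 9.75 elsewhere, and Sst, from the interneuron list, at 9.54 against 8.29 to 8.66. Not every hippocampal marker shared this. Neurod6 was at 6.66 there, below 6.96 and 6.87 in saline arrays 2 and 3, and Calb1 had its lowest value there, 12.24. These genes were singled out after their values were seen. Markers of cerebellar neurons were brighter as a list than those of the labelled tissue, which ran from dim to bright. Their median level was 7.07 to 7.21 in ethanol and 7.19 to 7.34 in saline over 19 hippocampal neuron markers, close to 7.10 for the median gene, and their means ran from 5.28 for Emx2, a forebrain transcription factor, to 9.76 for Camk2a, a kinase of excitatory neurons, and 12.28 for Calb1, a calcium-binding protein that cerebellar Purkinje cells also make. Over 17 cerebellar neuron markers it was 9.81 to 9.88 in ethanol and 9.84 to 9.99 in saline, and their means ran from 6.42 for En1, a transcription factor of the hindbrain, to 12.17 for Gabra6, a GABA receptor subunit of cerebellar granule cells, and 12.44 for Car8, a protein of Purkinje cells. Of 10 astrocyte markers 9 were higher in ethanol, with a median difference of 0.10 and 0 past the adjusted threshold in limma. The count was 13 of 17 for cerebellar neuron markers, with a median of 0.04, and 8 of 19 for hippocampal neuron markers, with a median of -0.015. It was 7 of 10 for oligodendrocyte, 6 of 10 for interneuron, 4 of 6 for choroid plexus and 1 of 3 for serotonin neuron markers. Whether the RNA came from hippocampus alone, as labelled, was not tested. The part of tissue makeup in the protocadherin values was not tested either. Rows differ in how strongly their probes bind, so levels of different genes do not rank their transcripts.

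The beta genes differed little between ethanol and saline. Of 22 beta genes, 17 had a higher mean in ethanol and 5 a lower one, and 18 differed by less than 0.1 on the log2 scale. The median difference, ethanol minus saline, was 0.04, and the genes ran from -0.15 for Pcdhb5 to 0.23 for Pcdhb2. No beta gene passed the test: limma called 0 of the 23 members at an adjusted p under 0.05, where it called 0 of 41345 rows, or 0%. The adjusted p of the members lay between 0.857 and 0.994.

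Before adjustment, 1 member, Pcdhb2, had a p under 0.05 as higher in ethanol and 0 as lower. Among all rows 1.97% were higher and 3.57% were lower by the same measure, so 1 of 23 is near the background. The values of ethanol and saline did not overlap in 2 members, Pcdhb2 and Pcdhb14, both higher in ethanol, and in 0 members the other way. Among all rows that held for 5.06% as higher and 6.01% as lower. A positive difference was found in 50.7% of all rows, with a median of 0.0024, and in 77.3% of the beta genes. Among the 13431 genes with a mean level in the range of the beta genes, from 5.30 to 8.31, it was found in 48.8%, with a median of -0.0026.

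The number of positive signs among the beta genes varied with the arrays used. Without ethanol array 3 the count was 11 of 22, with a median of 0.015, and without saline array 1 it was 13 of 22, with a median of 0.03. Without ethanol array 2 the median was also 0.03, with 16 of 22 positive, and without saline array 2 it was 0.03 with 16. Without ethanol array 1 the count was 17 of 22, with a median of 0.05, and without saline array 3 it was 18 of 22, with a median of 0.05. With quantile normalization, cyclic loess or centring on array medians 18 of 22 were positive. The beta median was 0.07, 0.06 and 0.08 there, and after centring the median of all rows was 0.04. With array weights 14 of 22 were positive, with a median of 0.03.

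**Figure D1:**
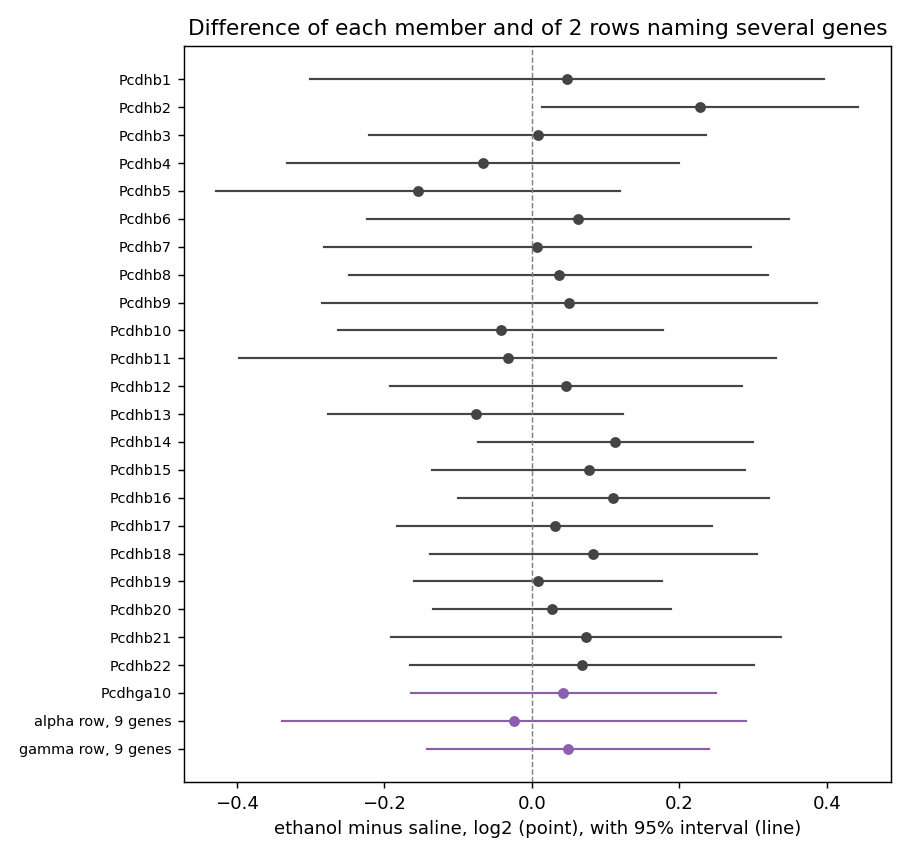
Difference between ethanol and saline for the 22 beta genes and Pcdhga10 in their order along the chromosome, followed by the row naming 9 alpha genes and the row naming 9 gamma genes. The x axis is ethanol minus saline on the log2 scale, points are limma estimates and lines 95% intervals. The interval of Pcdhb2, from 0.014 to 0.44, is the only 1 of the 25 that does not reach 0. The row naming both Pcdhga10 and Gm19774 is not shown.

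Pcdhb2 showed the largest positive difference. It had 5.90, 5.97 and 5.79 in ethanol arrays 1 to 3, against 5.66, 5.55 and 5.76 in saline arrays 1 to 3. The groups did not overlap, but ethanol array 3 and saline array 3 were close. The difference was 0.23 ± 0.09 (SE, 3 arrays against 3), with a 95% interval from 0.014 to 0.44, which is 1.17-fold, and an adjusted p of 0.857 in limma. The exact permutation test over the arrays, two-sided, gave p = 0.1, the smallest that 3 against 3 allows. Every row whose groups do not overlap gets this value, Pcdhb14 included, so it adds nothing to the lack of overlap.

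Pcdhb14 came next among the higher genes. It had 7.45, 7.52 and 7.33 in ethanol arrays 1 to 3, against 7.32, 7.32 and 7.31 in saline. The saline arrays lay unusually close together, with an SD of 0.0058, and the lowest ethanol array stood just above them. The difference was 0.11 ± 0.08 (SE), with an interval from -0.07 to 0.30 and an adjusted p of 0.862 in limma. Leaving out 1 array gave values from 0.07, without ethanol array 2, to 0.16, without ethanol array 3.

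Pcdhb5 showed the largest negative difference. It had 5.43, 5.67 and 5.81 in ethanol arrays 1 to 3, against 5.70, 5.90 and 5.76 in saline. Like that of Pcdhb2, this row was dim, with every value below the 7.10 of the median gene. Its mean was below the median of all rows, so Pcdhb5 was not tested among rows above the median level. Ethanol array 1 was the lowest of all, and ethanol array 3 lay inside the saline range. The difference was -0.15 ± 0.12 (SE), with an interval from -0.43 to 0.12 and an adjusted p of 0.865 in limma. Leaving out 1 array gave values from -0.24, without ethanol array 3, to -0.05, without ethanol array 1. It was -0.10 without saline array 2.

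Pcdhb13 followed among the lower genes. It had 6.66, 6.75 and 6.64 in ethanol arrays 1 to 3, against 6.82, 6.82 and 6.64 in saline. The groups overlapped through saline array 3, which was level with ethanol array 3, the lowest of its group. The difference was -0.08 ± 0.08 (SE), with an adjusted p of 0.895 in limma. Leaving out 1 array gave values from -0.13, without saline array 3, to -0.04, without saline array 2, and without saline array 1 the value was -0.05.

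Pcdhb20 had the highest row signal of the beta genes and one of the steadiest. It had 8.34, 8.32 and 8.29 in ethanol arrays 1 to 3, against 8.30, 8.27 and 8.31 in saline. The groups overlapped, and the difference was 0.03 ± 0.07 (SE), with an interval from -0.13 to 0.19. With quantile normalization the difference was -0.0072 and after cyclic loess -0.012, so its sign was not fixed. Pcdhb9 had the lowest row signal. It had 5.18, 5.36 and 5.44 in ethanol arrays 1 to 3, against 5.05, 5.23 and 5.55 in saline, where both the lowest and the highest value were saline. The difference was 0.05 ± 0.14 (SE). Without saline array 1 it was -0.062 and without saline array 3 it was 0.19.

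**Figure D2:**
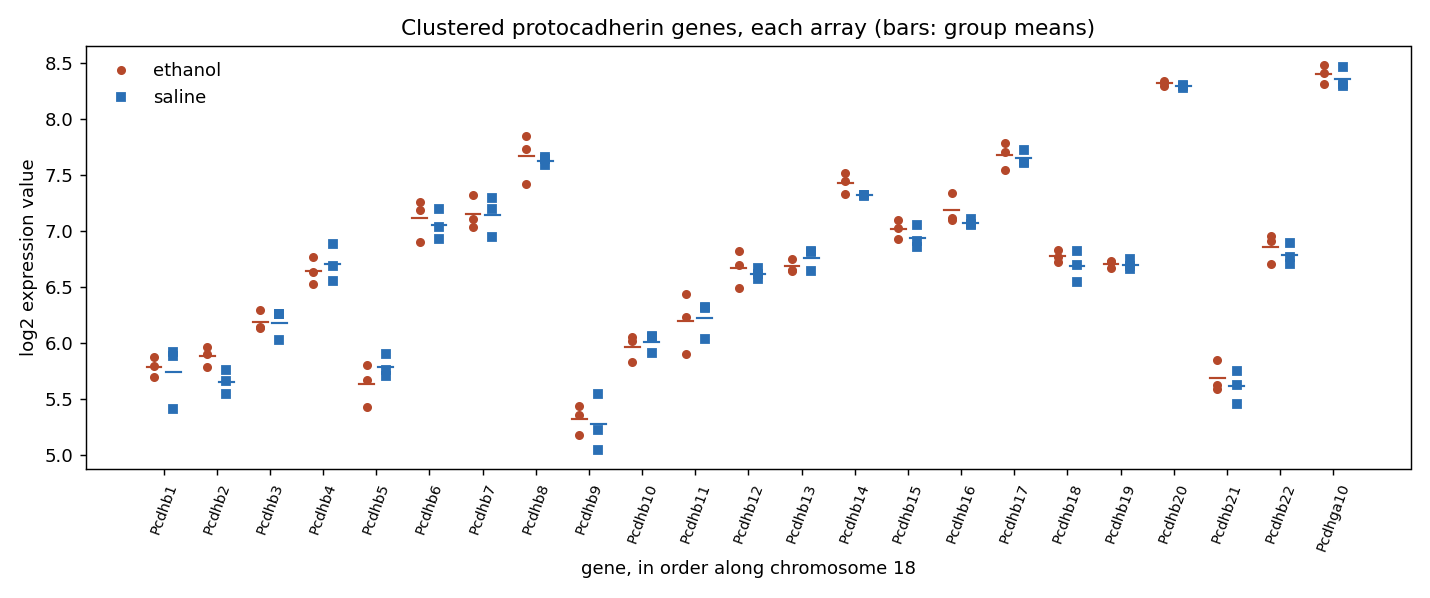
Log2 expression value of each member on each array, with the genes in order along chromosome 18, ethanol arrays as circles to the left and saline arrays as squares to the right, and bars for group means. Ethanol and saline overlap in 21 of the 23 genes, all but Pcdhb2 and Pcdhb14.

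The other 16 beta genes had overlapping groups. On the Pcdhb1 side of the cluster, Pcdhb1 differed by 0.05, Pcdhb3 by 0.0079, Pcdhb4 by -0.07, Pcdhb6 by 0.06 and Pcdhb7 by 0.0075. In the middle, Pcdhb8 differed by 0.04, Pcdhb10 by -0.04, Pcdhb11 by -0.03 and Pcdhb12 by 0.05. Every gene from Pcdhb14 to the far end was positive: Pcdhb15 stood at 0.08, Pcdhb16 at 0.11, Pcdhb17 at 0.03, Pcdhb18 at 0.08, Pcdhb19 at 0.0085, Pcdhb21 at 0.07 and Pcdhb22 at 0.07. The adjusted p of these 16 genes was between 0.870 and 0.994 in limma.

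Pcdhb16 differed nearly as much as Pcdhb14. It had 7.12, 7.34 and 7.10 in ethanol arrays 1 to 3, against 7.05, 7.07 and 7.11 in saline. Ethanol array 2 was well above every saline array, ethanol array 1 only just, and ethanol array 3 was inside the saline range. The difference was 0.11 ± 0.09 (SE). Pcdhb1 is the beta gene whose promoter lacks the conserved sequence element of the others, and it was singled out for this and for its spread after its values were seen. It had 5.70, 5.87 and 5.79 in ethanol arrays 1 to 3, against 5.92, 5.89 and 5.41 in saline. Saline array 3 was far below the other arrays, which gave the widest saline SD of the beta genes, 0.29, and a standard error of 0.15.

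The intervals bound what these arrays leave possible for single genes. Over the 22 beta genes the 95% intervals reached no higher than 0.44, a 1.36-fold excess in ethanol, for Pcdhb2. They reached no lower than -0.43, a 1.35-fold deficit in ethanol, for Pcdhb5. The standard errors ran from 0.07 for Pcdhb20 to 0.15 for Pcdhb11, with a median of 0.10, equal to the 0.10 of all rows. These intervals are not adjusted for the number of genes.

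The arrays of a group did not move together across the beta genes. Within groups the median SD of a beta gene was 0.12 in ethanol and 0.10 in saline, against 0.10 and 0.13 over all rows. Of 22 genes, 8, 17 and 13 lay above their own 6-array mean in ethanol arrays 1 to 3, against 9, 7 and 11 in saline arrays 1 to 3. The median deviation from the own mean was -0.04, 0.08 and 0.03 in ethanol, against -0.02, -0.04 and -0.0054 in saline. Ethanol array 1 was level with saline array 2, the lowest of the saline arrays, so the groups overlapped on this measure. Ethanol array 2 held the highest value for 8 of the 22 genes, and that array also had the widest spread of values over all rows, with an SD of 2.03 beside 1.97 to 2.02 on the other arrays. The part of that spread in the protocadherin values was not tested.

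Single genes departed from these array levels in both directions. Pcdhb11 lay 0.31 below its mean in ethanol array 2, where most beta genes were high, and 0.23 above it in ethanol array 3. Pcdhb8 did the opposite, at 0.20 above its mean in ethanol array 2 and 0.23 below it in ethanol array 3. In saline, Pcdhb9 was 0.25 above its mean in array 3, on which Pcdhb1 was 0.35 below its own. These genes were singled out after their values were seen.

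**Figure D3:**
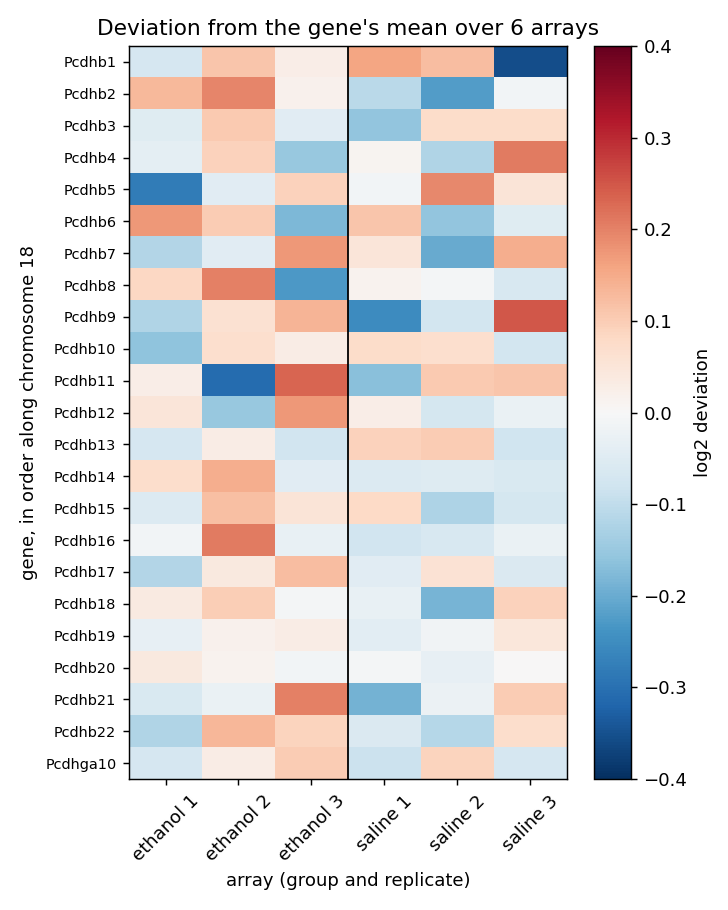
Deviation of each member from its own mean over the 6 arrays, on the log2 scale, with genes in order along chromosome 18 from top to bottom, the 3 ethanol arrays in the left columns and the 3 saline arrays in the right ones. Ethanol array 2 has most genes above their mean, 17 of the 22 beta genes, whereas saline array 2 has 7.

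On the mouse build GRCm38, the beta cluster lies on chromosome 18 from 37264998 to 37521419, starting with Pcdhb1 and ending with Pcdhb22. Its genes are 2340 to 5271 bases long and do not overlap, so each row can be tied to a separate place, although near-identical stretches of neighbouring beta genes could bind each other's transcripts. The 11 genes from Pcdhb1 to Pcdhb11 had 7 positive differences and a median of 0.0079. The 11 from Pcdhb12 to Pcdhb22 had 10 positive differences and a median of 0.07. The Spearman correlation of difference with position was 0.26 over the 22 genes, which share arrays and may share probe binding, and it is given as a description. The correlation of difference with mean level was 0.14 over the beta genes, against 0.38 over 22180 genes.

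The gamma cluster, from 37661775 to 37841873 on chromosome 18, was represented by Pcdhga10, an A-type gamma gene. It had 8.31, 8.41 and 8.48 in ethanol arrays 1 to 3, against 8.29, 8.47 and 8.31 in saline. The groups overlapped. The difference was 0.04 ± 0.09 (SE), with an interval from -0.16 to 0.25 and an adjusted p of 0.945 in limma. Leaving out 1 array gave values from 0.0023, without ethanol array 3, to 0.10, without saline array 2. It was 0.010 without saline array 1, 0.020 without saline array 3 and 0.09 without ethanol array 1. It was 0.0048 with quantile normalization, 0.00084 after cyclic loess and 0.08 after centring on array medians. The annotated span of Pcdhga10, from 37747016 to 37841870, overlaps the spans of all 21 other gamma genes, and 20 of these end within 20 bases of its end. Whether its row reads its own variable exon or the constant exons was not given in the sources used here. A separate row, naming both Pcdhga10 and Gm19774, differed by 0.28 and is described at the end.

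The row naming 9 gamma genes included Pcdhgc3, Pcdhgc4 and Pcdhgc5, the C-type gamma genes, which are closer in sequence to the alpha C-type genes than to the other gamma genes. It had 6.58, 6.53 and 6.45 in ethanol arrays 1 to 3, against 6.43, 6.57 and 6.41 in saline. The groups overlapped, and the difference was 0.05 ± 0.08 (SE), with an adjusted p of 0.931 in limma. Leaving out 1 array gave values from 0.020, without saline array 3, to 0.10, without saline array 2, with 0.021 without ethanol array 1, 0.08 without ethanol array 3 and 0.03 without saline array 1. It was 0.08 after cyclic loess and 0.09 with quantile normalization or centring.

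For the alpha cluster, from 36930285 to 37188897 on chromosome 18, the row naming 9 genes is the sole measurement. Its genes included Pcdhac1 and Pcdhac2, the C-type alpha genes; in mice Pcdhac2 is known for the spacing of serotonin axons. The row had 7.07, 6.92 and 7.14 in ethanol arrays 1 to 3, against 6.84, 7.32 and 7.05 in saline. Saline held both the lowest and the highest value. The difference was -0.02 ± 0.13 (SE), with an interval from -0.34 to 0.29 and an adjusted p of 0.977 in limma, and leaving out 1 array gave values from -0.14 to 0.099. After centring on array medians it was 0.014, so its sign was not fixed. The difference between clusters was not tested. Markers of serotonin neurons were dim, with Tph2 at a mean of 5.63 and Slc6a4 at 5.81.

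Genes around the clusters were next compared. Of 31 listed neighbours on chromosome 18, 29 had a row of their own, of which 20 were higher and 9 lower in ethanol, with a median of 0.07. None passed limma at an adjusted p under 0.05. Before adjustment 3 were higher and 1 lower at a p under 0.05. Among all rows 1.97% were higher and 3.57% lower by that measure. All 4 lie before the alpha cluster, where 17 neighbours were measured.

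Dnd1, an RNA-binding protein known from germ cells, had 5.91, 5.85 and 5.95 in ethanol arrays 1 to 3, against 6.12, 6.29 and 6.08 in saline. Every ethanol array was below every saline array, and the difference was -0.26 ± 0.09 (SE, adjusted p = 0.857 in limma). Hbegf, a heparin-binding growth factor of the EGF family, had 8.83, 8.92 and 8.64 in ethanol, against 8.64, 8.48 and 8.52 in saline. The lowest ethanol and the highest saline value were level, and the difference was 0.25 ± 0.10 (SE, adjusted p = 0.857 in limma). The others were Ndufa2, a subunit of mitochondrial complex I, at 0.27 ± 0.11 with overlapping groups, and Sra1, a steroid receptor RNA activator, at 0.18 ± 0.07, with groups that did not overlap. Nearest to the protocadherin genes, between the beta and gamma clusters, Slc25a2, a mitochondrial carrier, stood at -0.07 and Taf7, a part of the general transcription factor TFIID, at 0.011. Just after the gamma cluster, Diaph1, a formin that builds actin filaments, stood at 0.21 and Hdac3, a histone deacetylase, at 0.11, both with overlapping groups.

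Protocadherins outside the clusters, with the Fat and Dachsous cadherins, had 10 of 18 genes higher and 8 lower, with a median of 0.03 and a range from -0.08 to 0.12. Fat2, a giant cadherin of cerebellar granule cells, stood at 0.12 ± 0.09 (SE) and Fat1 at 0.12 ± 0.09. Pcdh1, which lies on the same chromosome beyond the gamma cluster, stood at 0.08 and Pcdh10 at 0.11. None of the 18 had an unadjusted p under 0.05. Among 18 classical and related cadherins 14 were higher, with a median of 0.06, and Cdh7 showed the smallest p, at 0.15 ± 0.09 (SE), with groups that did not overlap, followed by Cdh8 at 0.07 ± 0.07.

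Genes for the chromatin machinery that acts on protocadherin promoters had 21 of 25 higher and 4 lower, with a median of 0.03. Ctcf, the DNA-binding organizer of the clusters, stood at 0.04, the cohesin subunits Rad21 and Smc3 at 0.02 and 0.011, and Smchd1, a silencer of the clusters in mice, at 0.10. The smallest p in the list belonged to Setdb1, a histone H3 lysine 9 methyltransferase, at 0.14 ± 0.08 (SE), and Smc1a, a cohesin subunit, at 0.11 ± 0.07. Dnmt3b, the DNA methyltransferase that marks variable promoters in mouse embryos, stood at -0.05. None had an unadjusted p under 0.05.

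Partners and processing enzymes of the proteins had 18 of 21 higher and 3 lower, with a median of 0.07. They included Adam10, the sheddase of gamma protocadherins, at 0.11, and Nckap1 and Cyfip2, subunits of the WAVE actin regulator that binds protocadherin tails, at 0.07 and 0.02. Rhoa, a small GTPase, stood at 0.17 ± 0.09 (SE) and Snx2, a sorting nexin, at 0.16 ± 0.09, the 2 smallest p of the list. None had an unadjusted p under 0.05. Over the 109 distinct genes of these 5 lists, limma called 0 at an adjusted p under 0.05, the count it also gave for all rows. The median level was 8.64 over these 109 genes and 6.71 over the beta genes, on arrays where the difference of a gene was correlated with its level. Of the 109 genes 82 were higher in ethanol, or 75.2%. A positive difference was found in 57.2% of all 22180 genes and in 61.6% of the rows above the median level. The part of level in the list counts and medians was not tested.

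**Figure D4:**
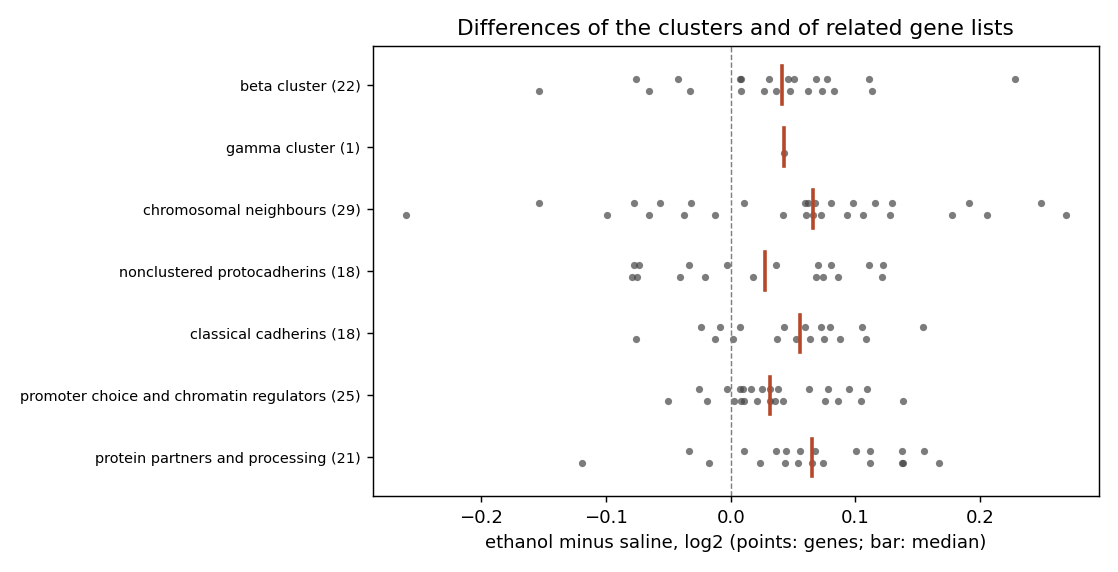
Ethanol minus saline on the log2 scale for the genes of the beta cluster, the gamma cluster and 5 related lists, with the number of genes in parentheses, a point for each gene and a bar for the median. All medians lie between 0.03 and 0.07, and single genes between -0.26 for Dnd1 and 0.27 for Ndufa2.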

How the data were processed

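The deposited table held 41345 rows of log2 expression values on 6 arrays, already summarized and scaled by the authors; the range of the values gave the scale. How they corrected background, summarized probes and normalized is not given in the sources used here. Per the submitters' processing notes the build was mm 10. The platform annotation named 1 gene for 23521 rows, several for 1814 and none for 16010, and a RefSeq table of GRCm38 gave positions. Ethanol and saline were compared in limma 3.58.1 (R 4.3.3) by lmFit and eBayes over every row, unfiltered and without covariates; two-sided p-values were Benjamini-Hochberg adjusted across the whole table, with a threshold of 0.05. The limma fit and adjustment were tried separately on simulated data, which did not cover the choice of rows or the other settings. Single values were also put to an exact permutation test over arrays. Named genes were the 2 most positive and 2 most negative beta genes, the brightest and the dimmest, Pcdhga10, and the 2 genes of each related list with the smallest p. Other genes are named for their role or place, or were chosen after their values were seen. The members and lists were chosen with earlier results of these data known. Labels do not say that pools came from separate litters, so p-values measure the spread between pools. The number of arrays limits the precision.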

Additional observations from a re-analysis of the deposited data

How the results depend on the processing

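The test was repeated with quantile normalization, median centring, cyclic loess, the replicate number as a block, a trended robust prior, array weights, 2 row filters, the mean of all rows per gene and each array left out. Of the members, limma called 0 in every setting, and of all rows 0 (2290 at an unadjusted p under 0.05), except 1 row without saline replicate 3 (0 to 1 leaving out 1 array). The count of members at an unadjusted p under 0.05 was 0 with the replicate block, with the trended robust prior and among rows above the median level (15 of 23 members tested, Pcdhb2 not among them), and 0 to 1 leaving out 1 array; the cause was not tested for the first 2. No pairing by array number was seen: correlations of same-numbered deviations were 0.10, -0.06 and 0.04. Ethanol arrays 2 and 3 each correlated better with another number. With 3 arrays in a group this cannot exclude pairing. Taking the mean of all rows per gene moved no member's value, as each had 1 row. Pcdhb2 was at 0.17 to 0.28 leaving out 1 array (adjusted p = 0.571 to 1.00). Its groups did not overlap, so its sign could not turn there, and it was named for its large difference. The sign of Pcdhb20 turned with quantile normalization (-0.0072) and cyclic loess (-0.012), that of the alpha row with median centring (0.014), and the causes were not tested. Leaving out 1 array gave -0.14 to 0.099 for the alpha row and -0.062 to 0.19 for Pcdhb9. The alpha median could not be computed, as no alpha gene had a row of its own, and no row named several beta genes.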

Other observations

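A row annotated with both Pcdhga10 and Gm19774 was left out of the comparisons, since its signal cannot be assigned to either gene. It had 11.15, 11.21 and 10.85 in ethanol arrays 1 to 3, against 10.87, 10.71 and 10.77 in saline arrays 1 to 3. Ethanol array 3 lay just below saline array 1, so the groups overlapped. The difference was 0.28 ± 0.11 (SE, 3 arrays against 3), with a 95% interval from 0.013 to 0.55. In limma its p was 0.042 before adjustment and 0.857 after it. RefSeq places Gm19774 outside the gamma cluster.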
